A study of Homo sapiens with 5 samples.

Results

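Mitochondrial protein import and biogenesis genes were examined for MYC and HSF1 binding at their start sites. The set holds 40 genes of 20033 protein-coding genes on chromosomes 1 to 22, X and Y. Its members were chosen by symbol and known function, with earlier results of these data known. They include the translocases of the outer membrane (TOMM) and inner membrane (TIMM) with their motor, the sorting machinery and the presequence peptidase. The others are the prohibitins and insertase, the factors of mitochondrial transcription, the matrix proteases and the disaggregase CLPB. All 40 symbols matched a protein-coding gene of GENCODE release 44 (GRCh38). A gene was counted as having a peak when a deposited peak lay within 1 kb of any of its annotated start sites, measured from the edge of the peak.

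CUT&RUN was performed on proliferating, untreated OVCAR8 cells, a human high-grade serous ovarian carcinoma line that the study chose because both MYC and HSF1 are amplified in it. In CUT&RUN, an antibody guides a nuclease to a DNA-bound protein and the fragments it releases are sequenced. There were 2 libraries with a MYC antibody, 2 with an HSF1 antibody and 1 with IgG, all from briefly fixed cells in standard culture, and the labels do not say whether replicates were separate cultures. After filtering, the antibody libraries held between 8265647 and 10084407 fragments and the IgG library 9306942. Each peak list came from 1 antibody library set against that IgG library, at a p-value threshold of 1e-10 for MYC and 1e-04 for HSF1, so a MYC peak and an HSF1 peak did not pass the same bar. The lists held 25623 and 13278 MYC peaks and 6421 and 4459 HSF1 peaks for replicates 1 and 2. No list holds read counts and each factor has 2 libraries, so counts of genes are given without a test, beside the share of all protein-coding genes under the same rule. OVCAR8 transcript levels were not analysed here, so that share also covers genes that may be silent in these cells.

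Nearly all mitochondrial proteins are encoded in the nucleus, made in the cytosol and threaded into the organelle through the TOM complex of the outer membrane and then the TIM complexes of the inner membrane, where a matrix motor driven by a mitochondrial HSP70 pulls them in. Once inside, a peptidase removes the targeting sequence, and chaperones and the LON and CLP proteases guard folding. A second set of nuclear genes supplies TFAM and the RNA polymerase POLRMT, which transcribe the mitochondrial genome, and nuclear respiratory factor 1 (NRF1) is a known activator of many such genes. MYC binds E-boxes near start sites and is known to promote mitochondrial biogenesis, and HSF1 binds heat shock elements and activates chaperone genes.

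Reference sequences that the results turn on are shown first, read from GRCh38 on the strand of the gene, 5′ to 3′, with the motif in capitals. An intact heat shock element, searched as GAANNTTCNNGAA on both strands, lay inside the HSF1 peaks of 2 of the 40 genes, or 2 of the 10 genes with an HSF1 peak (20%), beside 186 of 2391 protein-coding genes with an HSF1 peak (7.78%). Within 100 bases of the strongest HSF1 summit alone, the whole element was found at 0 of the 10 genes, beside 2.76% of the 2391. Each stretch runs from the element to the farther of the HSF1 summits, at TIMM21 chr18:74147951-74148131 (plus strand, upstream of the gene) and at POLRMT chr19:624219-624353 (minus strand, in an intron).
TIMM21: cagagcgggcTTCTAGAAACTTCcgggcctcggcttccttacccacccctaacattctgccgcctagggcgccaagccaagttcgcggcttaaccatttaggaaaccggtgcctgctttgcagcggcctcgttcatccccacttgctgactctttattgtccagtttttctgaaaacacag
POLRMT: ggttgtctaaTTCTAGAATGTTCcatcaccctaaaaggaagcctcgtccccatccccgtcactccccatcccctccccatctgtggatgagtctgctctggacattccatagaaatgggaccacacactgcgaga

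The canonical E-box, CACGTG, lay within 100 bp of a MYC summit at 4 genes. These were TOMM20 (chr1:235128988-235129017, minus strand, upstream), MTX1 (chr1:155208865-155208894, plus strand, coding exon), POLRMT (chr19:632835-632864, minus strand, coding exon) and LONP1 (chr19:5720341-5720370, minus strand, upstream of the canonical start). LONP1 had another E-box under its MYC peaks, at chr19:5720178-5720207. The count of 4 took any MYC peak of either list and has no share of all genes beside it. Within 100 bases of the strongest MYC summit alone, 2 of 39 genes held an E-box (5.13%), beside 7.32% of all genes with a MYC peak.
TOMM20: aaagtccgtggtCACGTGcaaattcccgac
MTX1: agcagtacaggcCACGTGcagtttggcaag
POLRMT: aaggactggggcCACGTGgagctgctggag
LONP1, distal: ctcacagccttcCACGTGaccggaaaaggc
LONP1, proximal: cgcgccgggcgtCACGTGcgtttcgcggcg

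A core of the site known for NRF1, GCATGCGC on either strand, was found in 7 promoters, defined here as 250 bases before to 50 bases after the canonical start. Windows of 30 bases are shown because these letters were among those the promoters of the set held more often than promoters at large. Where capitals span GCGCATGCGC, a copy on each strand overlaps.
TOMM7 (chr7:22822954-22822983): atcgcaaccacGCATGCGCctactactgcc
TIMM8B (chr11:112086752-112086781): acacccgtcGCGCATGCGCaaacacagctg
TIMM9 (chr14:58427641-58427670): agacacaacacGCATGCGCgccaagaaact
PAM16 (chr16:4351348-4351377): actgaggcaatGCGCATGCccagcgccgta
TFB1M (chr6:155314596-155314625): caggacttaGCGCATGCGCtctcagcacgc
TFB2M (chr1:246566258-246566287): ctccgctgttcGCATGCGCaggctctagtg
POLRMT, proximal (chr19:633541-633570): gcggcgcggGCGCATGCGCaggcgcgggcc
POLRMT, distal (chr19:633651-633680): agcgtccaccgGCGCATGCcttcgcgcctc
All of these genes lie on the minus strand.

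MYC peaks were present at nearly every gene of the set. In MYC replicate 1, 39 of 40 genes had a peak (97.5%), beside 55.3% of all protein-coding genes. In MYC replicate 2, 32 of 40 genes had one (80%), beside 41.2% of all genes. These 32 genes were in both MYC lists, where the share of all genes was 40.1%, and the 39 were those with a peak in at least 1 MYC list, where it was 56.4%. PMPCB was the remaining gene. Mitochondrial ribosomal protein genes had a MYC peak in both lists at 51 of 78 (65.4%) and respiratory complex I genes at 17 of 39 (43.6%). The share of the 40 chosen genes stood above both groups in each list, a difference that was not tested. It did not extend to all genes of these pathways. Among 47 others, described at the end, 30 had a MYC peak in both lists (63.8%), with 11 of 22 for import genes (50%).

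HSF1 peaks were fewer and the replicates overlapped less, in the set as among all protein-coding genes. HSF1 replicate 1 held a peak at 7 of 40 genes (17.5%), beside 8.58% of all protein-coding genes, and HSF1 replicate 2 at 6 genes (15%), beside 6.85%. In both HSF1 lists there were 3 genes, TIMM21, TFB1M and POLRMT, where the share of all genes was 3.49%. In at least 1 HSF1 list there were 10 genes (25%), beside 11.9% of all genes. At the p-value threshold used for MYC, 1e-10, 5 genes kept an HSF1 peak in at least 1 list, beside 3.54% of all genes, and they were TOMM40, TIMM21, TIMM22, TIMM44 and POLRMT. Ribosomal protein genes of the mitochondrion had HSF1 peaks in at least 1 list at 10 of 78 (12.8%) and complex I genes at 2 of 39 (5.13%).

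**Figure D1:**
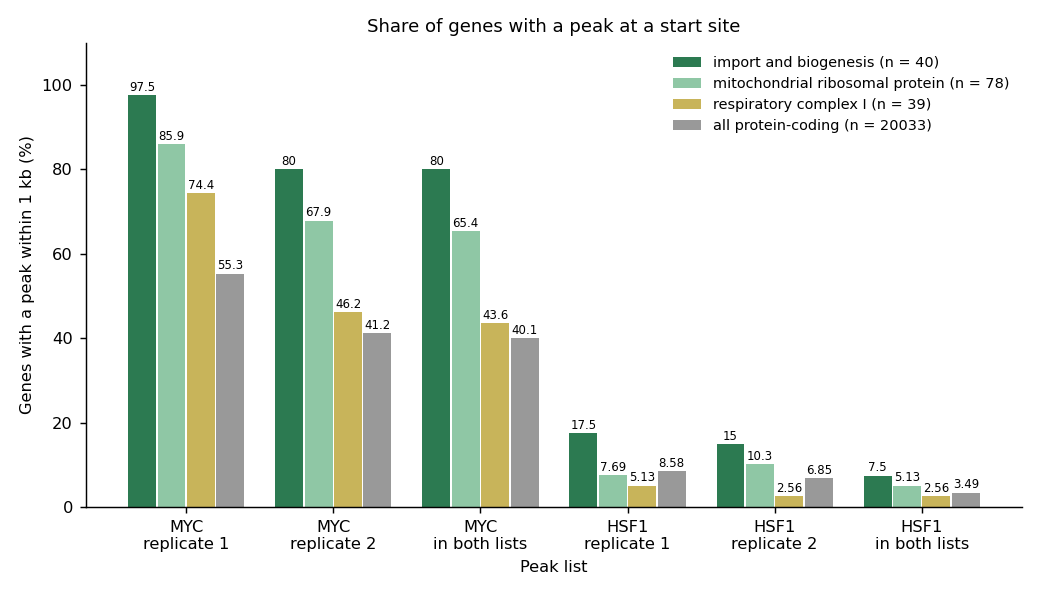
Share of genes (percent, vertical axis) with a peak within 1 kb of a start site in each peak list and in both lists of a factor, for the import and biogenesis genes, 2 other mitochondrial gene groups and all protein-coding genes. The import and biogenesis bars are the tallest in every list, from 97.5% in MYC replicate 1 to 7.5% in both HSF1 lists, where they stand for 3 genes.

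Heights of the MYC peaks were ordinary, unlike their frequency. The measure of height was the deposited fold enrichment over IgG at the strongest peak of a gene, set only against other genes of the same list. Its median over the genes with a peak was 14.9 in replicate 1 (range 6.81 to 39.6, n = 39) and 12.1 in replicate 2 (range 5.66 to 27.1, n = 32). All protein-coding genes with a peak had medians of 14.6 and 11.7. The members' median position among those genes was percentile 52.1 in replicate 1 and 52.3 in replicate 2.

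The outer membrane complex and its receptors had MYC peaks at 8 of 8 genes in replicate 1 and at 6 in both lists. The shares of the whole set were 97.5% and 80%, and those of all protein-coding genes 55.3% and 40.1%. TOMM20, a receptor for presequences, reached a fold enrichment of 26.8 in replicate 1 and 21.3 in replicate 2 (mean 24.0 ± 3.83 SD, n = 2), which placed it at percentiles 90.1 and 91.1. TOMM40, the channel itself, reached 20.4 and 12.1, near percentile 76.0 in the first list and 52.6 in the second. TOMM7, a small subunit of the complex, had the lowest mean of the whole set, with 6.81 and 5.66 (mean 6.24 ± 0.811 SD, n = 2). It lay at percentiles 1.35 and 1.01. The TOMM7 peaks of the 2 libraries did not overlap and their summits lay 404 bp apart. These values and their mean therefore come from different places near the gene's start sites. TOMM22, TOMM5 and TOMM6 lay between, from 10.7 to 14.4 over the lists. TOMM34 and TOMM70, which both work with cytosolic chaperones, had peaks in replicate 1 only, at 15.1 and 10.3.

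Small TIM chaperones, which escort hydrophobic precursors across the intermembrane space, included some of the tallest peaks. TIMM9 reached 25.3 and 20.5 (mean 22.9 ± 3.41 SD, n = 2). Both TIMM9 summits lay nearer the start of KIAA0586, at 78 and 69 bp, than that of TIMM9, at 120 and 129 bp. TIMM10, the partner of TIMM9, reached 38.7 and 7.28 (mean 22.97 ± 22.2 SD, n = 2). TIMM10 thus stood at percentile 98.2 of replicate 1 and 7.08 of replicate 2, and its ratio of 5.31 between replicates was the highest of the 32 genes with both values, so its mean says little. TIMM13 gave 26.2 and 14.5. TIMM8B gave 11.1 and 5.68 (mean 8.42 ± 3.86 SD, n = 2), the third lowest mean. TIMM8A, the partner of TIMM13, had a peak in replicate 1 alone, at 15.0.

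At the inner membrane, TIMM22, the channel for carrier proteins, had closely matched values of 21.7 and 20.2. TIMM50, a presequence receptor, gave 16.3 and 14.0. TIMM23, the presequence channel, gave 10.4 and 8.38 (mean 9.38 ± 1.41 SD, n = 2), among the 5 lowest means. TIMM23 has a near-identical copy, TIMM23B, so its height is uncertain where reads map to both. TIMM17A and TIMM17B, alternative partners of TIMM23, had peaks in replicate 1 only, at 8.69 and 19.6. The TIMM17B summit lay 10 bp from the start of PQBP1 and 112 bp from the nearest TIMM17B start. TIMM21, which links the channel to the respiratory chain, gave 11.3 in each library.

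All 4 genes of the import motor had MYC peaks in both lists, beside 80% of the whole set and 40.1% of all protein-coding genes. PAM16, a regulator of the motor, gave 29.7 and 26.2 (mean 27.9 ± 2.46 SD, n = 2), at percentiles 93.5 and 96.4. TIMM44, which anchors mitochondrial HSP70 at the channel, gave 19.6 and 12.3. GRPEL1, a nucleotide exchange factor of that HSP70, gave 22.3 and 8.64, and the ratio of 2.58 was the next highest between replicates after TIMM10. Its paralog GRPEL2 gave 14.9 and 12.8, so the paralogs exchanged order between libraries.

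Sorting, processing and insertion genes were mixed. SAMM50, the core of the sorting and assembly machinery, had a peak in replicate 1 only, at 12.2, while its partners MTX1 and MTX2 gave 13.3 and 6.86 and 14.3 and 8.76. MTX1 had a mean of 10.1 ± 4.55 (SD, n = 2), also among the 5 lowest. The 2 subunits of the presequence peptidase parted: PMPCA gave 14.7 and 16.2, and PMPCB had no peak within 1 kb in any of the 4 lists. The nearest MYC peak to a PMPCB start site was 16616 bp away in replicate 1 and 16962 bp away in replicate 2. Among the prohibitins, PHB1 gave 16.8 and 11.02 and PHB2 gave 8.28 and 7.93 (mean 8.10 ± 0.245 SD, n = 2), the second lowest mean. OXA1L, an insertase of the inner membrane, had a peak in replicate 1 only, at 11.02.

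The genes of mitochondrial transcription had MYC peaks in both lists at 5 of 5, beside 80% of the whole set and 40.1% of all protein-coding genes. Their fold enrichments were 14.3 to 21.6 in replicate 1 and 10.4 to 13.2 in replicate 2. TFAM, which packages mitochondrial DNA and starts its transcription, gave 20.2 and 13.2. TFB2M, the partner of the polymerase at promoters, gave 14.3 and 10.4, and TFB1M, a methyltransferase of mitochondrial ribosomal RNA, gave 21.6 and 13.0. POLRMT gave 17.9 and 12.2. NRF1, the nuclear activator, gave 16.1 and 12, at percentiles 58.5 and 51.5. Within either list these genes differed from each other by less than TFB1M differed between its libraries.

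Matrix proteases held the tallest peak of the set. LONP1, the LON protease that degrades oxidized proteins, gave 39.6 and 27.1 (mean 33.3 ± 8.85 SD, n = 2), at percentiles 98.4 and 97.0, with peaks at chr19:5719950-5720955 and chr19:5719952-5720899. The pileup at its summits, the number of fragments stacked there, was 144 and 114, the highest of the members in each list. CLPP, the proteolytic subunit of the CLP protease, gave 9.43 and 12.6, and its ratio of 0.747 was the lowest of the set. CLPX, the unfolding subunit, gave 12.01 and 11.7. CLPB, a disaggregase grouped with these genes but not a protease, gave 13.6 and 6.75.

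**Figure D2:**
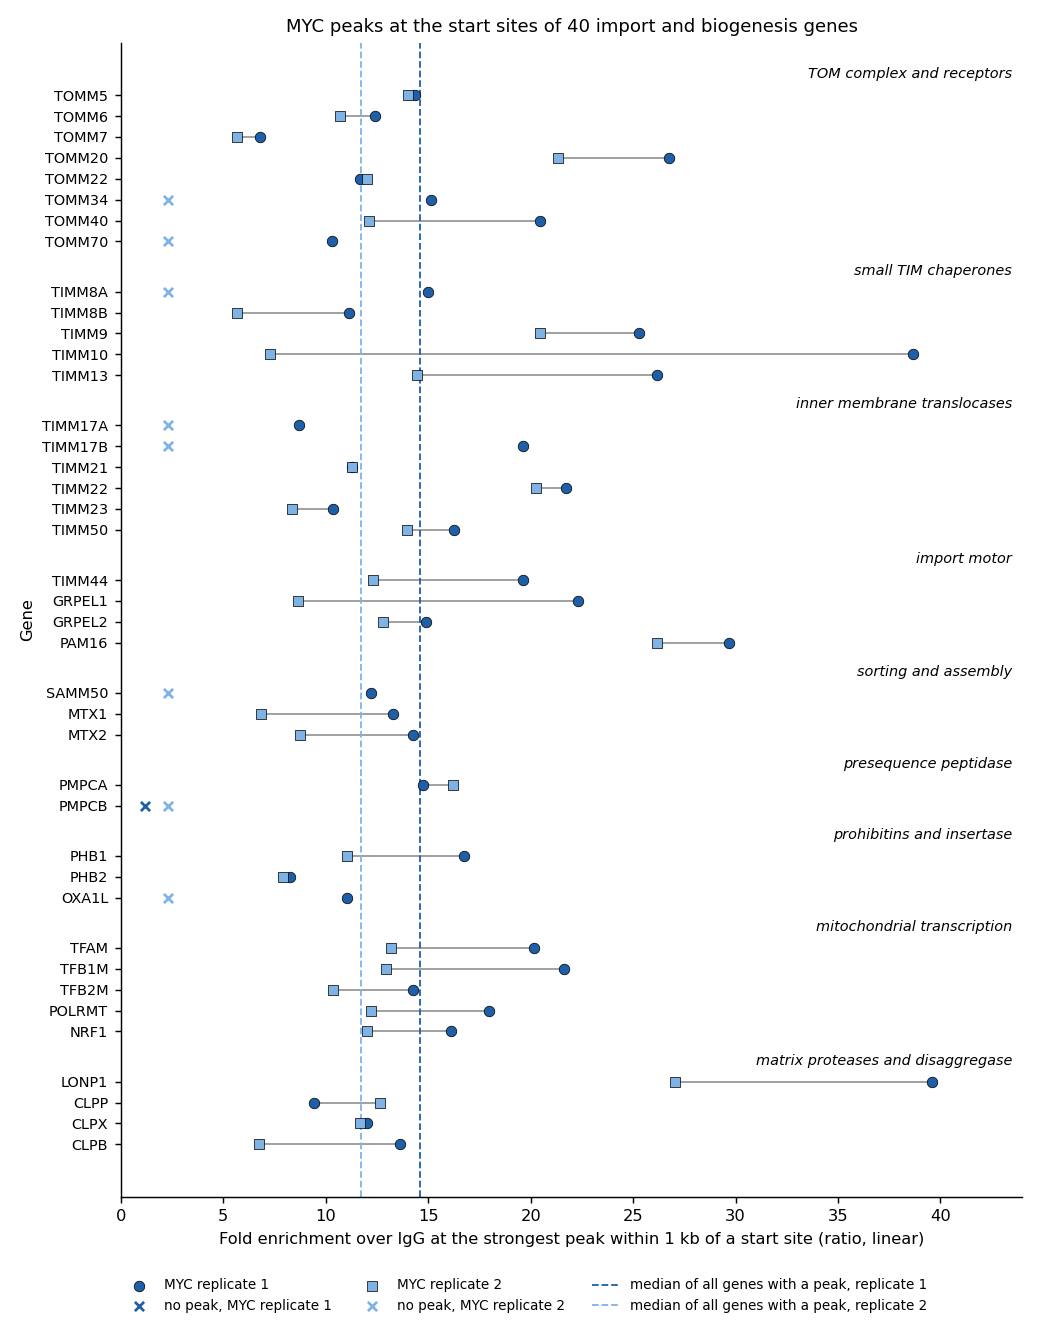
Fold enrichment over IgG (linear axis) of the strongest MYC peak within 1 kb of a start site, for each of the 40 genes by role, in replicate 1 (circles) and replicate 2 (squares), joined where both exist; crosses at the left mark genes with no peak in that list and have no value. LONP1 lies farthest right among genes high in both lists, TIMM10 has the longest gap between libraries, and TOMM7 lies farthest left.

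Differences between the MYC libraries were alike in the set and in other genes. Fold enrichment was higher in replicate 1 at 28 of the 32 genes with both values, with a median ratio of 1.30, and at 6511 of 8024 protein-coding genes, with a median ratio of 1.36. The SD of the log2 ratio was 0.52 for the members and 0.52 for all genes. The exceptions were TOMM22, TIMM21, PMPCA and CLPP. Of all protein-coding genes, 3056 of the 11080 with a peak in replicate 1 had it there only. Their median fold enrichment was 10.9, beside 16.7 in replicate 1 for the 8024 shared genes. In the set, 7 genes were found in replicate 1 only: TOMM34, TOMM70, TIMM8A, TIMM17A, TIMM17B, SAMM50 and OXA1L. These 7 had a median of 12.2 there (8.69 to 19.6), beside 15.5 for the 32 shared genes, and the ranges overlapped. The nearest replicate 2 peak to them lay between 5756 bp (TOMM34) and 125958 bp (TIMM17A) from a start site. Absence from a list means only that no peak passed the threshold in that library, and does not show that MYC was not bound.

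The HSF1 signal was strongest at TIMM21. Its HSF1 peaks spanned chr18:74147595-74148671 in replicate 1 and chr18:74147649-74148737 in replicate 2, with fold enrichments of 40.2 and 38.9 and pileups of 88 and 80. These placed TIMM21 at percentiles 99.6 and 98.1 of the genes with an HSF1 peak. The summits lay 458 and 402 bp upstream of the TIMM21 start and nearer to the start of FBXO15, the gene on the opposite strand, at 222 and 278 bp, so which gene the peak belongs to cannot be told apart from position. The heat shock element of this peak, at chr18:74147961-74147973, was 98 bp from the first summit and 154 bp from the second. MYC summits at TIMM21 were 184 bp upstream in replicate 1 and 73 bp downstream of the nearest start in replicate 2, and lay 218 to 546 bp from the HSF1 summits, although the peaks overlapped in every pairing of lists. TIMM21 was the gene at which HSF1 fold enrichment exceeded that of MYC in both libraries, with different antibodies and therefore without a common scale.

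POLRMT and TFB1M were the other genes in both HSF1 lists. The POLRMT peaks, chr19:624070-624537 and chr19:624145-624611, had fold enrichments of 13.1 and 8.78 and lay in an intron. Their summits were 9308 and 9277 bp downstream of the canonical start, and they counted only because their edges fell 972 and 898 bp from the start of a shorter annotated transcript, just inside the limit of 1 kb. The intronic heat shock element, at chr19:624331-624343, was 108 and 77 bp from the summits. None of the MYC peaks within 1 kb of a POLRMT start site overlapped this intronic site, and the nearest of their summits was 8557 bp away. A weaker HSF1 peak in replicate 2 alone, with a fold enrichment of 4.56, lay in a coding exon of POLRMT, where it overlapped a MYC peak of replicate 1. TFB1M had HSF1 fold enrichments of 5.63 and 6.49, with summits 241 and 194 bp upstream of its nearest start, and was the gene of the set with an HSF1 summit within 250 bp of its own start in both libraries. Its peaks fell short of the 1e-10 threshold, with −log10 p-values of 8.21 and 9.87.

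Of the 2391 protein-coding genes with an HSF1 peak, 699 had it in both lists, a share similar to 3 of the 10 genes of the set. The other 7 genes of the set had it in 1 library. In replicate 1 these were TOMM40 at a fold enrichment of 5.53, TIMM10 at 5.77, TIMM44 at 6.65 and TFAM at 4.19. In replicate 2 they were TOMM34 at 5.41, TIMM22 at 6.90 and PAM16 at 5.19. All 7 were at most 6.90, beside medians of 5.00 and 5.19 for all genes with an HSF1 peak in the same lists. TFAM was the weakest, at percentile 22, with a summit in its 5′ UTR 111 bp downstream of the canonical start. The nearest HSF1 peak of the other replicate lay at least 14334 bp away for each of the 7 genes.

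Every gene with an HSF1 peak also had an overlapping MYC peak in at least 1 pairing of lists, 10 of 40 (25%), beside 10.7% of all protein-coding genes. Such overlap was general, since 2137 of the 2391 protein-coding genes with an HSF1 peak (89.4%) had it. TIMM21 and TFB1M overlapped in all 4 lists, beside 2.53% of all genes. Summit distance differed among the genes. At TFAM the HSF1 peak lay wholly within the MYC peak and the summits coincided in both MYC libraries, at a distance of 0 bp. At TIMM22 the HSF1 summit was 24 bp from the replicate 1 MYC summit and 1 bp from a replicate 2 summit, and at TOMM40 it was 90 and 6 bp away. At TIMM10 the distances were 51 and 202 bp, at TIMM44 60 and 310 bp, at TFB1M 53 to 280 bp, and at PAM16 154 and 374 bp. At TOMM34 the distance was 233 bp, to the MYC peak of replicate 1. Overlap of peaks from separate libraries does not show that both proteins sat on the same DNA molecule.

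**Figure D3:**
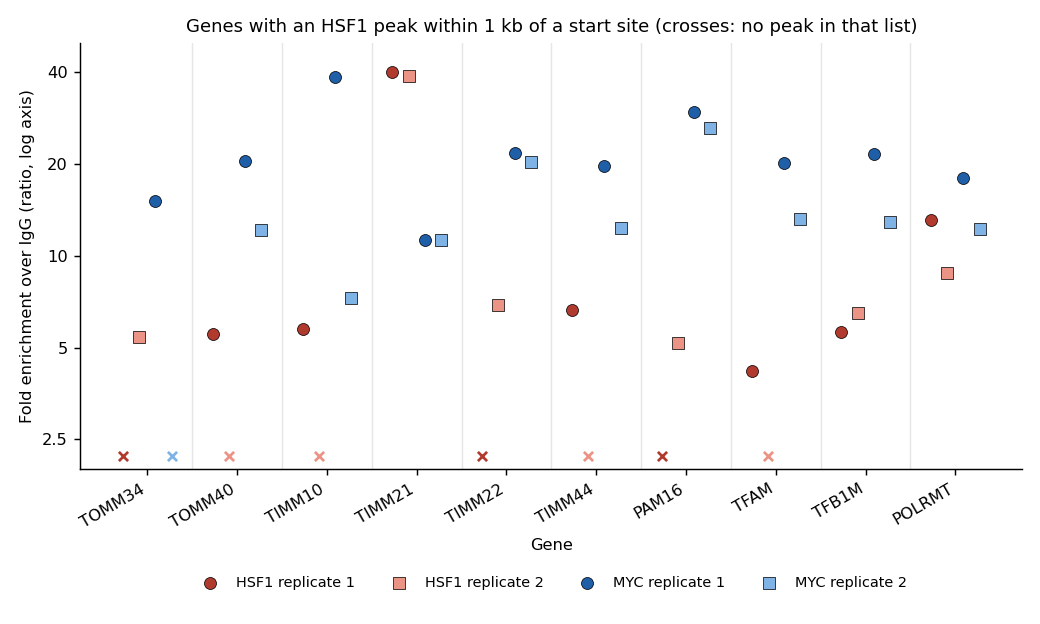
Fold enrichment over IgG (log axis) of HSF1 (red) and MYC (blue) peaks at the 10 genes with an HSF1 peak within 1 kb, replicate 1 as circles and replicate 2 as squares; crosses at the bottom mark lists with no peak. TIMM21 is the gene whose HSF1 points, 40.2 and 38.9, lie above its MYC points, and the other HSF1 points lie between 4.19 and 13.1.

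MYC peaks of the set lay close to start sites. The MYC summit of the strongest peak lay within 250 bp of a start site at 35 of 39 genes in replicate 1 (89.7%) and at 28 of 32 in replicate 2 (87.5%), beside 75.1% and 70.8% of all protein-coding genes with a peak. Its median position was 76 bp upstream in replicate 1, with offsets from -322 to 189 bp, and 14.5 bp upstream in replicate 2, with offsets from -486 to 227 bp. The start site lay inside the MYC peak at 37 of 39 and 28 of 32 genes (94.9% and 87.5%), beside 77.4% and 68.6% of all genes with a peak. MYC summits of the 2 replicates were a median of 79.5 bp apart at the members and 90.0 bp apart at all genes in both lists. HSF1 summits lay a median of 176 and 191 bp upstream, and 5 of 7 and 3 of 6 (71.4% and 50%) were within 250 bp, near the 66.1% and 59.1% of all genes with an HSF1 peak.

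**Figure D4:**
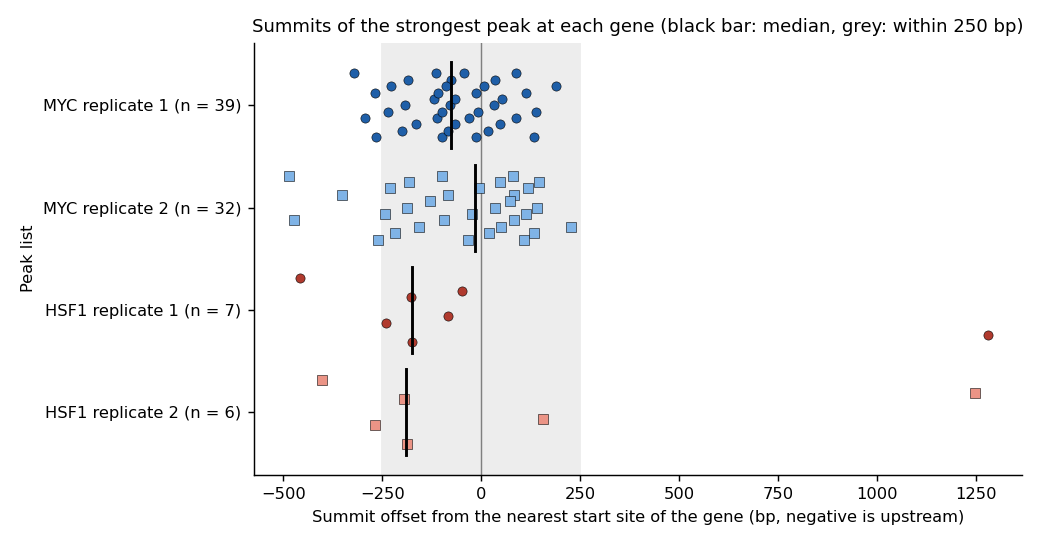
Distance (bp, negative is upstream) from the nearest start site of each gene to the summit of its strongest peak in each of the 4 lists; each point is a gene, black bars are medians and the grey band spans 250 bp either side. MYC summits crowd into the band, and the HSF1 points beyond 1000 bp are POLRMT in each replicate.

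Promoter properties that did not enter the selection were compared next. The canonical start lay within 1 kb of another coding or long noncoding gene's start at 20 of 40 genes (50%), beside 27.1% of all protein-coding genes and 41.2% of those with a MYC peak in both lists. The share was 61.5% for complex I genes and 43.6% for mitochondrial ribosomal protein genes, so it was not particular to the set. Such neighbours included SDHD at TIMM8B, CATSPERD at LONP1, KIAA0586 at TIMM9 and THBS3 at MTX1, and a peak there can belong to either gene. Median GC content was 65.0% in the promoter window, beside 63.7% for all genes, and the median number of annotated start sites was 5 in both.

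ETS and NRF1 letters were frequent in the promoters. The core of ETS family sites, CCGGAAG on either strand, was found in 18 of 40 promoters (45%), beside 14.1% of all promoters and 19.5% of those with a MYC peak in both lists. Mitochondrial ribosomal protein promoters held it at 41% and complex I promoters at 20.5%. The NRF1 core was found in 7 of 40 (17.5%), the genes whose windows are printed above, beside 4.27% of all promoters and 6.26% of MYC-bound ones. Complex I promoters held it at 15.4%, close to the set, and mitochondrial ribosomal protein promoters at 8.97%. POLRMT, TFB1M and TFB2M were among them, and TFAM and the NRF1 gene itself were not, which says only that these letters were not in that window. POLRMT, TFB1M and TIMM8B held both cores.

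E-boxes in the same promoter window were about as frequent as elsewhere. CACGTG was found in 4 of 40 promoters (10%), those of TOMM20, TIMM8A, TIMM10 and LONP1, beside 8.76% of all promoters and 12.5% of MYC-bound ones. The variant CACGCG was found in 13 of 40 (32.5%), beside 15.2% and 21.9%. Within 100 bases of the strongest MYC summit CACGCG was at 6 of 39 genes (15.4%), beside 13.7% of all genes with a MYC peak, so the higher share was seen in the promoter window and not at the summits. In replicate 1 the 4 genes with a promoter E-box had MYC fold enrichments of 15.0 to 39.6 (median 32.7). The 35 genes without one had 6.81 to 29.7 (median 14.4), so the ranges overlapped. In replicate 2, 3 of the 4 genes had a peak, at 7.28 to 27.1 (median 21.3). The 29 genes without an E-box had 5.66 to 26.2 there (median 12). TIMM8A had no peak in replicate 2, and TIMM10 fell from 38.7 to 7.28. Among all protein-coding genes these medians were 18.0 and 14.3 in replicate 1 and 13.5 and 11.6 in replicate 2. In the wider window of 500 bases either side of the start, 17 of 40 genes held CACGTG (42.5%), beside 18.3% of all genes, so the comparison depended on the window. Around the strongest MYC summit, within 100 bases, 2 of 39 genes held an E-box (5.13%), beside 7.32% of all genes with a MYC peak. The distal LONP1 E-box lay 127 and 75 bp from the summits, the TOMM20 E-box 87 and 298 bp, and the MTX1 E-box 56 and 24 bp. The POLRMT E-box was 32 bp from a MYC summit of replicate 1 and 35 bp from the exonic HSF1 summit of replicate 2. CACGCG was within 100 bp of an HSF1 summit at TIMM21, PAM16 and TFAM, 3 of 10 genes (30%), beside 9.45% of all genes with an HSF1 peak, and the heat shock element was in none of the 40 promoters, beside 0.364% of all promoters.

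**Figure D5:**
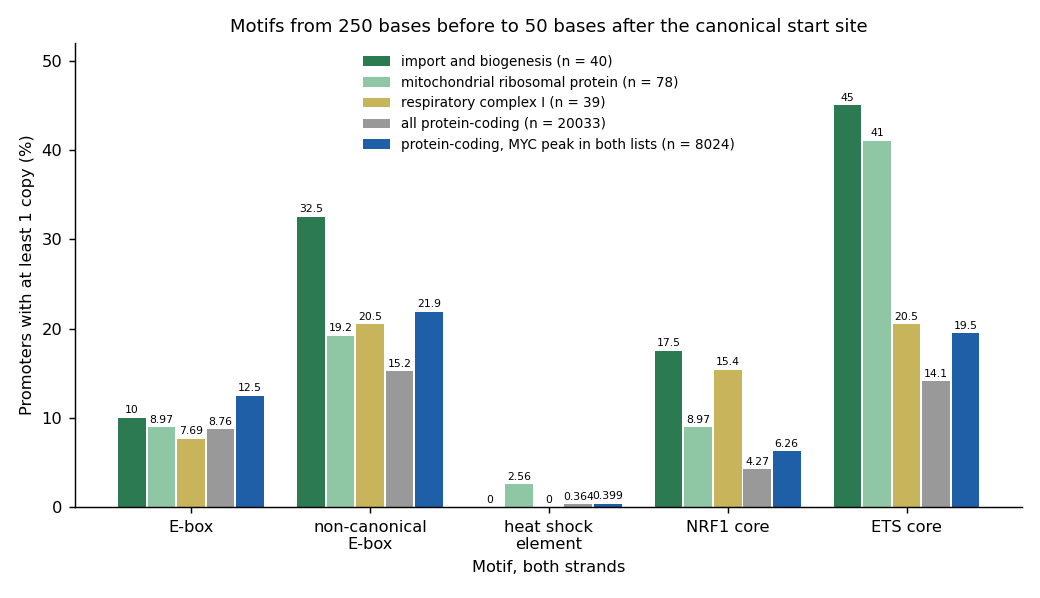
Share of promoters (percent, vertical axis) with at least 1 copy of each motif on either strand, in the import and biogenesis genes, 2 other mitochondrial groups, all protein-coding genes and protein-coding genes with a MYC peak in both lists; the non-canonical E-box is CACGCG. The import and biogenesis bars stand above all promoters for the ETS core (45% against 14.1%), CACGCG (32.5% against 15.2%) and the NRF1 core (17.5% against 4.27%), while the canonical E-box (10%) is close to the others.

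The 47 other genes of the same pathways, listed by function, were scored by the same rule. MYC peaks were in both lists at 30 of them (63.8%), beside 40.1% of all protein-coding genes. HSF1 peaks were in both lists at 7 (14.9%), beside 3.49%, and in at least 1 list at 13 (27.7%), beside 11.9%. Matrix chaperones were among the genes with HSF1 peaks in both lists. HSPD1 and HSPE1, the mitochondrial chaperonin and its cofactor, share 1 promoter and so 1 peak, with HSF1 fold enrichments of 15.1 and 20.5, and HSPA9, the HSP70 of the import motor, gave 6.70 and 12.1. XPNPEP3, a presequence-trimming peptidase, gave 70.6 and 77.6 at a promoter shared with ST13, an HSP70 cochaperone. CHCHD4, ESRRA and YY1 also had HSF1 peaks in both lists, none above 7.17.

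In 1 HSF1 list only, peaks were found at TOMM40L (6.25), YME1L1 (3.75), AFG3L2 (3.03), SSBP1 (4.98), MTERF2 (5.38) and MTERF3 (5.49), given as fold enrichment. Of the motor genes, HSPA9 therefore had HSF1 peaks in both libraries, TIMM44 and PAM16 in 1 library each, and GRPEL1 and GRPEL2 in neither. The TIMM44 summit lay nearer the start of a long noncoding gene, at 124 bp, than that of TIMM44, at 176 bp. Of the other pathway genes, 17 lacked a MYC peak in both lists. No MYC peak was called in either list at TOMM20L, TIMM29, ROMO1, DNAJC15, IMMP2L, MIPEP, MTERF4 and PPARGC1A, the last of which encodes a coactivator of NRF1. In replicate 1 only, MYC peaks were found at TIMM10B, DNAJC19, MTX3, IMMP1L, YME1L1, PARL, TEFM and MTERF1, with fold enrichments from 8.34 to 13.3, and AGK had a peak in replicate 2 only, at 7.83.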

How the data were processed

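The analysis started from MYC and HSF1 CUT&RUN peak lists of OVCAR8 cells, 1 list deposited per antibody library. To make them, the authors demultiplexed with bcl2fastq 2.20.0, trimmed, mapped the reads with Bowtie 2 against GRCh38/hg38 and ran MACS 2.2.9.1 on each library against the same IgG control, so replicates were not pooled. That IgG library is numbered replicate 2 in the headers and has no number in the labels. Per the file headers, thresholds were 1e-04 for HSF1 and 1e-10 for MYC. Each deposited row gives a pileup (a signal at the summit), a −log10 p-value and a fold enrichment, the ratio of the pileup to the local background estimated from IgG. All fold enrichments therefore share 1 IgG library, and no list of IgG peaks was analysed here.

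From these lists, peaks were assigned to every GENCODE release 44 gene with a start site within 1 kb of the peak, with Python 3.11.15, pandas 2.3.3, numpy 2.4.6, scipy 1.17.1 and pysam 0.24.0, and drawn with matplotlib 3.10.9. Where a gene had several peaks in a list, the one with the highest fold enrichment was used. Percentiles are among all protein-coding genes with a peak in the same list. Overlap needed 1 bp. Motifs were searched on both strands, with matches of both strands at 1 place counted once. Peak assignment and motif search were tested on simulated data, and recovered all planted peaks and motifs. The members, the roles, the other pathway genes and the tests were chosen with earlier results of these data known. Named with values were members with an HSF1 peak, those not in both MYC lists, the 5 highest and 5 lowest mean MYC fold enrichments, the 2 least alike between replicates, those with an E-box near a MYC summit, and TFAM, NRF1, TOMM20, TOMM40 and LONP1. The remaining members were named by role, outside that rule, after their values were seen. Alternatives covered the distance, the summit, the canonical start, stricter p-values, each library left out, other measures of height, other windows for motifs and, added after the data were seen, assignment to the nearest start site of any gene.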

Additional observations from a re-analysis of the deposited data

How the results depend on the processing

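Both MYC counts kept within 1.5 times their value under every alternative tried. They ran from 24 to 39 for both lists and from 35 to 39 for at least 1 list. The shares of all protein-coding genes ran from 28.3% to 55.3% and from 46.9% to 61.1%. HSF1 counts depended on the threshold and the library. Genes in both HSF1 lists fell from 3 to 1 (TIMM21) at 1e-20, beside 3.49% and 0.589% of all genes. HSF1 replicate 2 alone gave 6 and replicate 1 alone gave 7, beside 6.85% and 8.58%. Without the intronic POLRMT peak, which was lost within 500 bp, with the summit within 1 kb or with the canonical start, 2 remained. The shares of all genes in both HSF1 lists in those settings were 3.09%, 3.35% and 2.58%. Genes in at least 1 HSF1 list numbered 10, then 5 at 1e-10 and 2 at 1e-20, beside 11.9%, 3.54% and 1.15% of all genes. Overlapping HSF1 and MYC peaks were found at 10 genes, at 4 at 1e-10 and at 2 where all 4 lists were needed. The shares of all genes were 10.7%, 3.12% and 2.53%. Without 1 library the overlap was found at 6 to 10 genes, beside 5.95% to 10.6%, with 6 without either HSF1 library. The median MYC percentile over both lists was 53.8 and by −log10 p-value 51.2. Assignment to the nearest start site of any gene was chosen after seeing the data. It left 24 genes with MYC peaks in both lists, beside 29.4% of all protein-coding genes. HSF1 peaks in at least 1 list were kept at 7 genes, beside 9.39%, and lost at TIMM21, TIMM44 and TOMM40. TIMM9, TIMM17B, NRF1 and TOMM40 then had no MYC peak in either list. Motif counts followed the window: within 100 bases of the strongest MYC summit E-boxes were found at 2 genes, CACGCG at 6 and ETS cores at 10, beside 7.32%, 13.7% and 8.89% of all genes with a MYC peak, and within 500 bases of the start E-boxes at 17 and CACGCG at 23, beside 18.3% and 32.1% of all genes. Settings not named here stayed within 1.5 times of the reported counts. No paired analysis was possible because the result comes from counts of peaks with no test, and MYC and HSF1 replicates share only a number. The depth of 8265647 to 10084407 fragments and 2 libraries a factor limit what a missing peak can show. MYC replicate 2 held more fragments than replicate 1 (10084407 against 8265647) and fewer peaks (13278 against 25623). HSF1 replicate 1 held more fragments than replicate 2 and more peaks.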
